A study of Mus musculus with 10 samples.

Results

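Splicing factor genes of 5 families were followed in mouse liver: the SR proteins (Srsf), the heterogeneous nuclear ribonucleoproteins (Hnrnp), the small nuclear ribonucleoprotein polypeptides (Snrp), the U2 auxiliary factors (U2af) and splicing factor 3 (Sf3). Members were all genes whose symbol starts with one of these names, without the 1 pseudogene symbol ending in -ps, and each gene was read from its single-symbol transcript cluster with the highest mean over all arrays. This gave 49 of 22180 genes, of which 10 are Srsf, 18 Hnrnp, 9 Snrp, 3 U2af and 9 Sf3 genes. Only the mean over all 10 arrays chose a cluster, and no comparison between groups entered the choice. Of 55 protein-coding genes of these families in the gene table of assembly GRCm38.p6, Hnrnpa1, Hnrnph3, Snrpa, Snrpf and Snrpn lay only in clusters with several symbols, and Srsf7 was not analysed here.

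The arrays measured liver RNA of male mice at 4 weeks of age, 1 array per sample, in 3 groups. Livers of the first group carried Rosa26-rtTA and SOD2 shRNA 1 (n = 3), those of the second Rosa26-rtTA and SOD2 shRNA 2 (n = 3), and controls were littermates with Rosa26-rtTA alone (n = 4). Both shRNA groups together are the adapted livers (n = 6): pregnant dams ate chow with 625 mg/kg doxycycline, which switches on the hairpin through rtTA, so that Sod2, the superoxide dismutase of mitochondria, was knocked down over embryonic days 0 to 12.5 only. The comparison concerns what the study calls adapted livers, weeks after the knockdown ended. Rosa26 is active in nearly all cell types, so the knockdown was not aimed at hepatocytes, and whether a hairpin stands for more than 1 founder is not stated. Of the controls, 3 were littermates of the shRNA 2 animals and 1 of the shRNA 1 animals, but the labels do not say which, so hairpin and cohort cannot be told apart. The labels do not say that the samples are separate animals, so the p-values reflect spread between the samples alone, which may be technical.

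Splicing removes introns from pre-mRNA on the spliceosome, which assembles anew on each intron. The U2AF heterodimer reads the 3′ splice site and helps bring in the U2 particle, whose SF3A and SF3B proteins hold the branch point; Sm proteins form the ring around the U1, U2, U4 and U5 RNAs. SR proteins bind exonic enhancers and favour the use of nearby splice sites, whereas hnRNPs bind many intronic and exonic elements and often oppose them. Many SR and hnRNP genes limit their own mRNA by including an exon that sends the transcript to nonsense-mediated decay. A transcript cluster gives 1 value per gene and array, so such forms were not separated here. In bulk liver, fewer cells of a type and less RNA per cell cannot be told apart.

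No splicing factor gene changed past the threshold in any comparison. Levels are the authors' deposited log2 values, a difference is the mean log2 level of one group minus that of another, and genes under the 40th percentile of mean level (3.98) were left out as too dim. At an adjusted p of 0.05 (limma, Benjamini-Hochberg over 13308 genes) 0 of the 47 members past the level filter were called in adapted livers against controls, where 1 gene in all (0.00751%) was called. The count was also 0 for shRNA 1 against controls (all genes 0, 0%), shRNA 2 against controls (all genes 1, 0.00751%) and shRNA 1 against shRNA 2 (all genes 2, 0.0150%). At an unadjusted p under 0.05, 4 of 47 members (8.51%) had differences in adapted livers, all 4 with lower means, beside 8.37% of all genes in both directions of which 3.51% had lower means and 4.86% higher. The 4 were U2af1, Srsf6, Sf3b3 and Snrpd3. Such a p was found for 2 of 47 members in shRNA 1 livers (7.89% of all genes), 3 of 47 in shRNA 2 livers (7.60%) and 2 of 47 between the shRNA lines (6.02%). The members' shares were thus close to the background in both directions together, or below it. Each comparison against controls used the same 4 controls.

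Small differences in one direction made up most of the pattern. In adapted livers 35 of 47 members (74.5%) had a lower mean than in controls, beside 48.0% of all genes, and the median difference was -0.07 on the log2 scale beside 0.01 over all genes. In shRNA 1 livers 39 of 47 members (83.0%) had a lower mean (47.6% of all genes), with a median difference of -0.08. In shRNA 2 livers the count was 33 of 47 (70.2%, against 48.8% of all genes), with a median of -0.06. Between the lines 26 of 47 members (55.3%) had lower means in shRNA 1 livers (48.9% of all genes), with a median of -0.03, which took the other sign when single livers were left out. These counts describe the list: members share arrays, are not independent, and were given no test as a group. The members' differences in adapted livers ran from -0.38 for U2af1 to 0.26 for Snrpd1, and 0 members passed 0.5 in size, beside 0.909% of all genes.

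**Figure D1:**
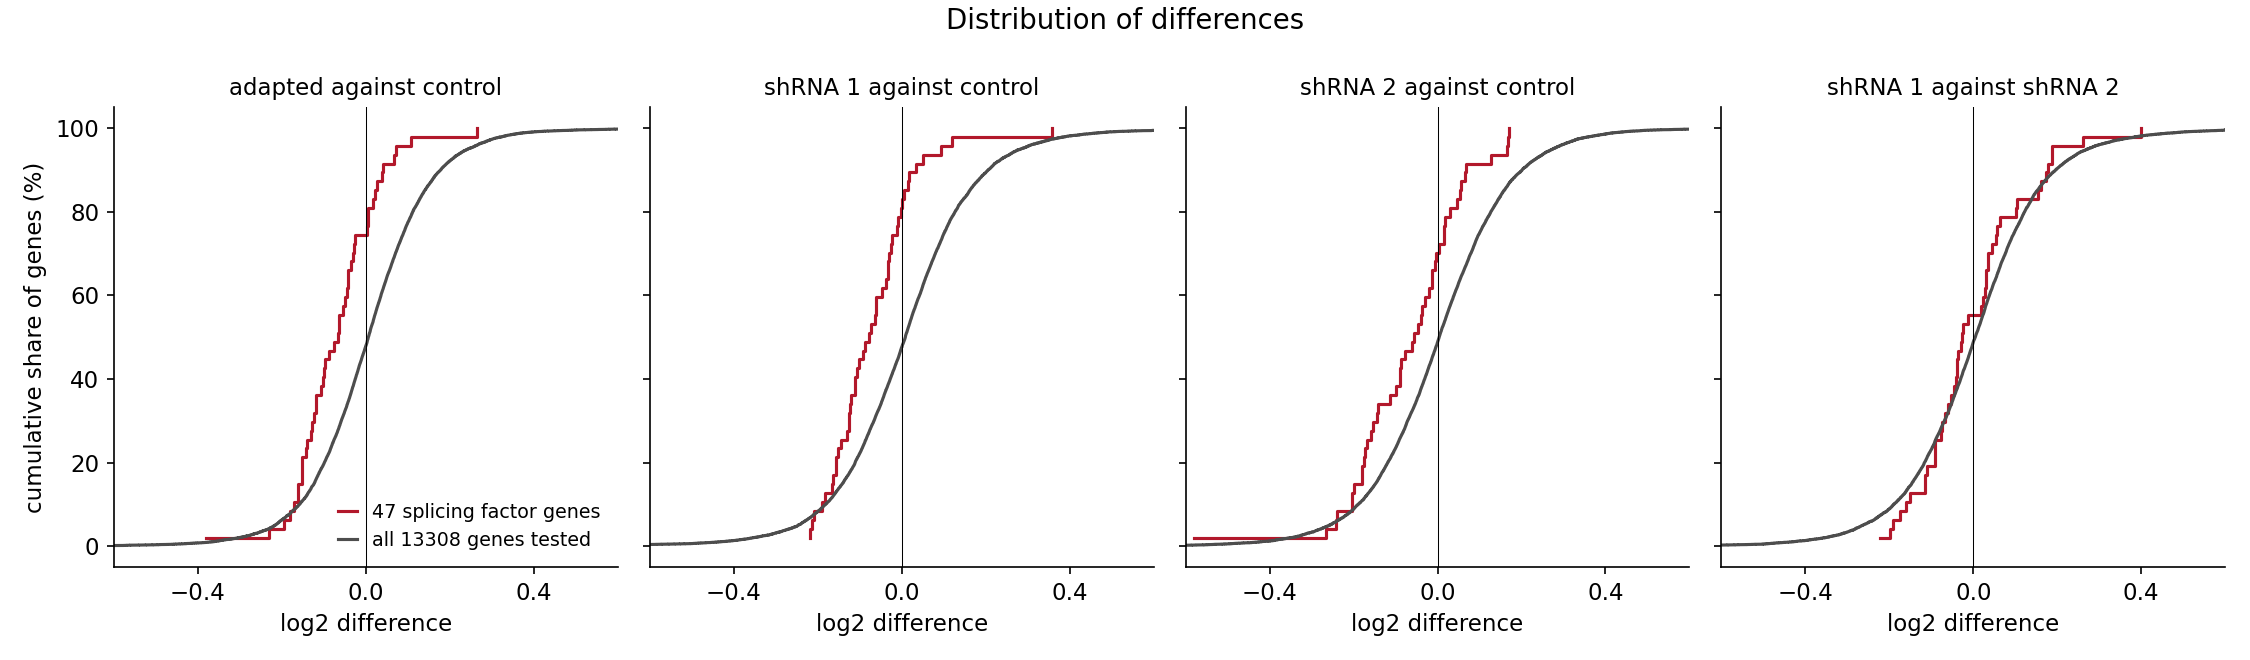
Cumulative share of genes (vertical axis, percent) against the log2 difference (horizontal axis, cropped at 0.6 in either direction) in each of the 4 comparisons, for the 47 splicing factor genes past the level filter (red) and all 13308 genes tested (grey). In the 3 comparisons against controls the red line lies left of the grey one at 0, with 74.5%, 83.0% and 70.2% of members below 0, and between the shRNA lines both run close together.

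The promoter of the leading member of each family by p in adapted livers is shown first, since it has the smallest p of its family there and the windows differ in make-up. Each window holds the 250 bases before the transcription start (RefSeq, GRCm38.p6), read 5′ to 3′ on the gene's strand, with capitals for letters of a GC box (GGGCGG, bound by Sp1), a CCAAT box (CCAAT, bound by NF-Y), an ETS core (CCGGAAG) or a TATA box (TATAAA), each on either strand. Srsf6 lies at chr2:162931258-162931507 (plus strand), Hnrnph2 at chrX:134600929-134601178 (plus), Snrpd3 at chr10:75517792-75518041 (plus), U2af1 at chr17:31658765-31659014 (minus, the first of 2 windows) and Sf3b3 at chr8:110846804-110847053 (minus).
U2af1: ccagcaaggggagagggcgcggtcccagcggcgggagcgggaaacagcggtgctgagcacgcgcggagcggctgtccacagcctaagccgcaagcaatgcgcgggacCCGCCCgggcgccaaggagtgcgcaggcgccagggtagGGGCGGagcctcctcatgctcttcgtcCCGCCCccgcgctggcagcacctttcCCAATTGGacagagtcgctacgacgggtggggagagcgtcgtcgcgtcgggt
Srsf6: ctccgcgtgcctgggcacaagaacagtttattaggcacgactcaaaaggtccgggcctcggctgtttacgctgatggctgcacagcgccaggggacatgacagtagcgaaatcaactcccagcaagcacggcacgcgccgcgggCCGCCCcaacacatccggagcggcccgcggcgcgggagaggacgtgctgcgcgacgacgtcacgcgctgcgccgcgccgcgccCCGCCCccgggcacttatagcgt
Hnrnph2: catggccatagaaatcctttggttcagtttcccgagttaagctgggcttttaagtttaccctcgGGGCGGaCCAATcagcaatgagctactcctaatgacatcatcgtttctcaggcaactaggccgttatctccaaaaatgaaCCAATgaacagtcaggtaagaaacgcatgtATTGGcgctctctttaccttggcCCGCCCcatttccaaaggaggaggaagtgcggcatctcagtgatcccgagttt
Snrpd3: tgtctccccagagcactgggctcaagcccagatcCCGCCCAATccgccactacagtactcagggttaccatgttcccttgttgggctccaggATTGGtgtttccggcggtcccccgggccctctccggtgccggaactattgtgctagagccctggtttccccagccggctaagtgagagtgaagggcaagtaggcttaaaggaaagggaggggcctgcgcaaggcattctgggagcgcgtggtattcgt
Sf3b3: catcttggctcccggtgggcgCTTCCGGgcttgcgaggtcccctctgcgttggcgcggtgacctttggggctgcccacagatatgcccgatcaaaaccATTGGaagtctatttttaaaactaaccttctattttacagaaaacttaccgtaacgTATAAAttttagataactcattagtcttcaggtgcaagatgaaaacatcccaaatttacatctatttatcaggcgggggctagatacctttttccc
The U2af1 window is 71.6% G and C with 3 GC boxes and a CCAAT box read on both strands of one overlapping palindrome, counted as 2. Srsf6 holds 2 GC boxes in 68.4% G and C, and Sf3b3, at 45.6%, holds a TATA box, an ETS core and 1 CCAAT box but no GC box. In Snrpd3 a GC box and a CCAAT box overlap.

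Promoters were found for 42 of the 49 members, as 56 windows, and set beside all 32851 windows of the table. Member windows had a median of 61.6% G and C, against 52.4% in all windows. A GC box stood in 71.4% of member windows and 32.7% of all, a CCAAT box in 46.4% and 33.9%, and an ETS core in 32.1% and 6.91%. A TATA box stood in 7.14% of member windows and 12.4% of all. The palindromic E-box CACGTG, which clock proteins and Myc can bind, was in 5.36% and 6.02% and the cAMP response element TGACGTCA in 1.79% and 1.55%. The antioxidant response element core TGACNNNGC stood in 16.1% and 10.2%, and the heat shock element core GAANNTTC in 12.5% and 6.69%. Letters in a window are a description, not binding, and G and C content moves with several of these motifs.

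U2af1, the small subunit that contacts the AG at the 3′ splice site, showed the largest difference of any member. Its log2 levels were 8.04, 8.01 and 8.12 in shRNA 1 livers, 7.72, 7.58 and 7.67 in shRNA 2 livers, against 8.18, 8.01, 8.29 and 8.48 in rtTA controls. All 3 shRNA 2 livers lay below all 4 controls and below all 3 shRNA 1 livers, while the shRNA 1 livers overlapped the controls. In shRNA 2 livers against controls the difference was -0.58 (standard error 0.11, 95% interval -0.82 to -0.34), or 0.669 of the control level, with an unadjusted p of 0.00022 and an adjusted p of 0.407. In shRNA 1 livers it was -0.18 (standard error 0.11, adjusted p = 0.742), and in adapted livers -0.38 (standard error 0.09, adjusted p = 0.297), with an interval of -0.58 to -0.18. The lines themselves differed by 0.40 (standard error 0.12, adjusted p = 0.678) in shRNA 1 against shRNA 2. U2af1 was the only member whose difference passed 0.5 in size in shRNA 2 livers, where 1.17% of all genes did.

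U2af2, the large subunit that binds the polypyrimidine tract, averaged 6.63 ± 0.06 in shRNA 1 livers and 6.67 ± 0.09 in shRNA 2 livers, against 6.78 ± 0.20 in controls (SD, n = 3, 3 and 4), a difference of -0.13 (adjusted p = 0.756) in adapted livers. U2af1l4, a paralogue of U2af1 that can take its place in the heterodimer in mouse, measured 6.36, 6.30 and 6.40 in shRNA 1 livers, 6.37, 6.56 and 6.47 in shRNA 2 livers, against 6.36, 6.55, 6.56 and 6.42 in rtTA controls. The groups overlapped, and adapted livers differed from controls by -0.06 (standard error 0.08, adjusted p = 0.868). In a separate limma fit over all 41345 clusters, a second, dimmer cluster of U2af1l4 gave -0.37 in adapted livers (unadjusted p = 0.021). In shRNA 2 livers it gave -0.53 (unadjusted p = 0.0078), so the 2 clusters of this gene disagree in size. They also disagree in sign for shRNA 1 against shRNA 2, with -0.11 for the cluster used and 0.32 for the dimmer one. Over the 3 U2af genes the median difference was -0.13 in adapted livers. By line it was -0.15 (shRNA 1) and -0.11 (shRNA 2), with -0.04 for shRNA 2 when control replicate 1 is left out and -0.18 when replicate 4 is.

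**Figure D2:**
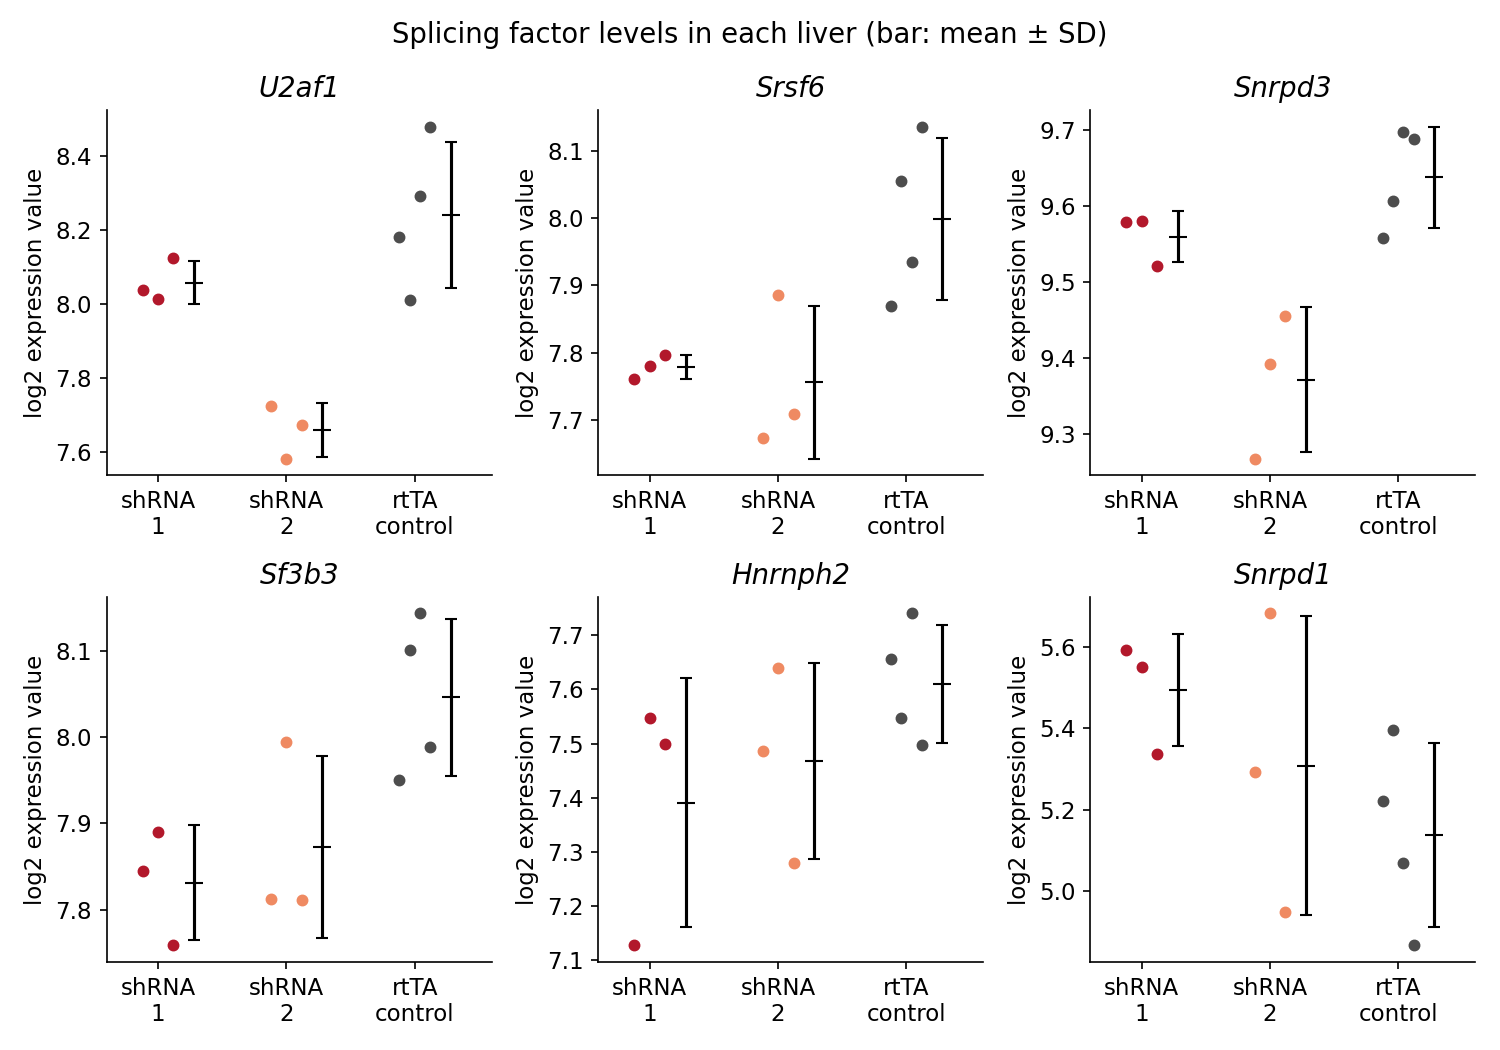
Log2 expression values (vertical axis, a scale of its own in each panel that does not start at 0) of U2af1, Srsf6, Snrpd3, Sf3b3, Hnrnph2 and Snrpd1 in each liver, by group from shRNA 1 and shRNA 2 to rtTA control, with the mean and SD beside the points. U2af1 lies between 7.58 and 7.72 in shRNA 2 livers, below every other liver. Snrpd1 is the one of the 6 with higher means in both shRNA groups, in shRNA 2 through the second liver at 5.68.

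Among SR proteins 8 of 9 tested genes had lower means in adapted livers, with a median of -0.12. Srsf6, which binds exonic enhancers, measured 7.76, 7.78 and 7.80 in shRNA 1 livers, 7.67, 7.89 and 7.71 in shRNA 2 livers, against 7.87, 8.06, 7.93 and 8.14 in rtTA controls. All 3 shRNA 1 livers lay below all controls, and 1 shRNA 2 liver did not. The difference was -0.23 (standard error 0.08, adjusted p = 0.483) in adapted livers, -0.22 (adjusted p = 0.591) in shRNA 1 livers and -0.24 (adjusted p = 0.624) in shRNA 2 livers. A second cluster of Srsf6, under the level cut at a mean of 3.42, gave 0.00 in adapted livers. Srsf2, known as SC35 and long used to mark nuclear speckles, stood at 9.49, 9.75 and 9.51 in shRNA 1 livers, 9.57, 9.64 and 9.57 in shRNA 2 livers, against 9.80, 9.62, 9.65 and 9.91 in rtTA controls. Its groups overlapped, with a difference of -0.16 (standard error 0.09, adjusted p = 0.65). Srsf10, which represses splicing once it loses its phosphates, stood at 5.72, 5.64 and 5.58 in shRNA 1 livers, 5.33, 5.55 and 5.53 in shRNA 2 livers, against 5.59, 5.45, 5.82 and 5.98 in rtTA controls, and adapted livers differed by -0.15 (standard error 0.11, adjusted p = 0.752). All 3 shRNA 1 livers were above all 3 shRNA 2 livers for Srsf10, by 0.18 (adjusted p = 0.922).

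Srsf4, a close relative of Srsf6, measured 7.50, 7.38 and 7.32 in shRNA 1 livers, 7.33, 7.17 and 6.91 in shRNA 2 livers, against 7.31, 7.20, 7.25 and 7.45 in rtTA controls. Its means lay on opposite sides of the controls in the lines, and shRNA 1 exceeded shRNA 2 by 0.26 (standard error 0.12, adjusted p = 0.826). Srsf1, the SR protein first described as SF2/ASF, measured 8.45, 8.55 and 8.20 in shRNA 1 livers, 8.19, 8.35 and 8.14 in shRNA 2 livers, against 8.35, 8.34, 8.35 and 8.68 in rtTA controls. Control replicate 4 stood apart from the other 3 controls, and shRNA 1 against shRNA 2 gave 0.17 (standard error 0.13, adjusted p = 0.922). Of the remaining tested members, Srsf5 differed by -0.14 in adapted livers, Srsf9 by -0.07, Srsf3 by -0.03 and Srsf11 by 0.01. Adjusted p for these 4 ran from 0.818 to 0.994. Srsf3, the smallest SR protein, is needed for hepatocyte maturation in mice. Srsf12 (3.14 to 3.75 over all livers) fell short of the level cut of 3.98 and was not tested.

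The SR medians leaned on 1 control. Relative to the mean of the controls, the Srsf median was 0.00, -0.07 and -0.20 in shRNA 1 livers, -0.18, -0.11 and -0.18 in shRNA 2 livers, against -0.08, -0.11, -0.08 and 0.25 in rtTA controls. The fourth control was the highest of the 10 livers for 16 of 47 members and the lowest for 5. Its array median was also the highest, at 4.17. How often it was highest over all genes was not counted. Without it the Srsf median came to -0.04 for adapted livers, 0.00 for shRNA 1 and -0.10 for shRNA 2, against -0.12, -0.11 and -0.15 with it. Without shRNA 1 replicate 3 the shRNA 1 median was -0.03. Adapted differences without the fourth control were -0.03 for Srsf1, -0.06 for Srsf10, -0.07 for Hnrnph1 and -0.04 for Hnrnpul2. SR-related proteins and SR kinases, a separate list, had a median of 0.17 in the same control and -0.08 to -0.01 in the other controls. Other lists were not all high in the fourth control. Its median was 0.07 for other splicing regulators, -0.10 for other spliceosome proteins and -0.11 for LSM proteins. It was -0.15 for SMN complex genes and -0.06 for exon junction and nonsense-mediated decay genes. Among the other families it was 0.03 (Hnrnp), -0.07 (Snrp), -0.05 (U2af) and -0.06 (Sf3).

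**Figure D3:**
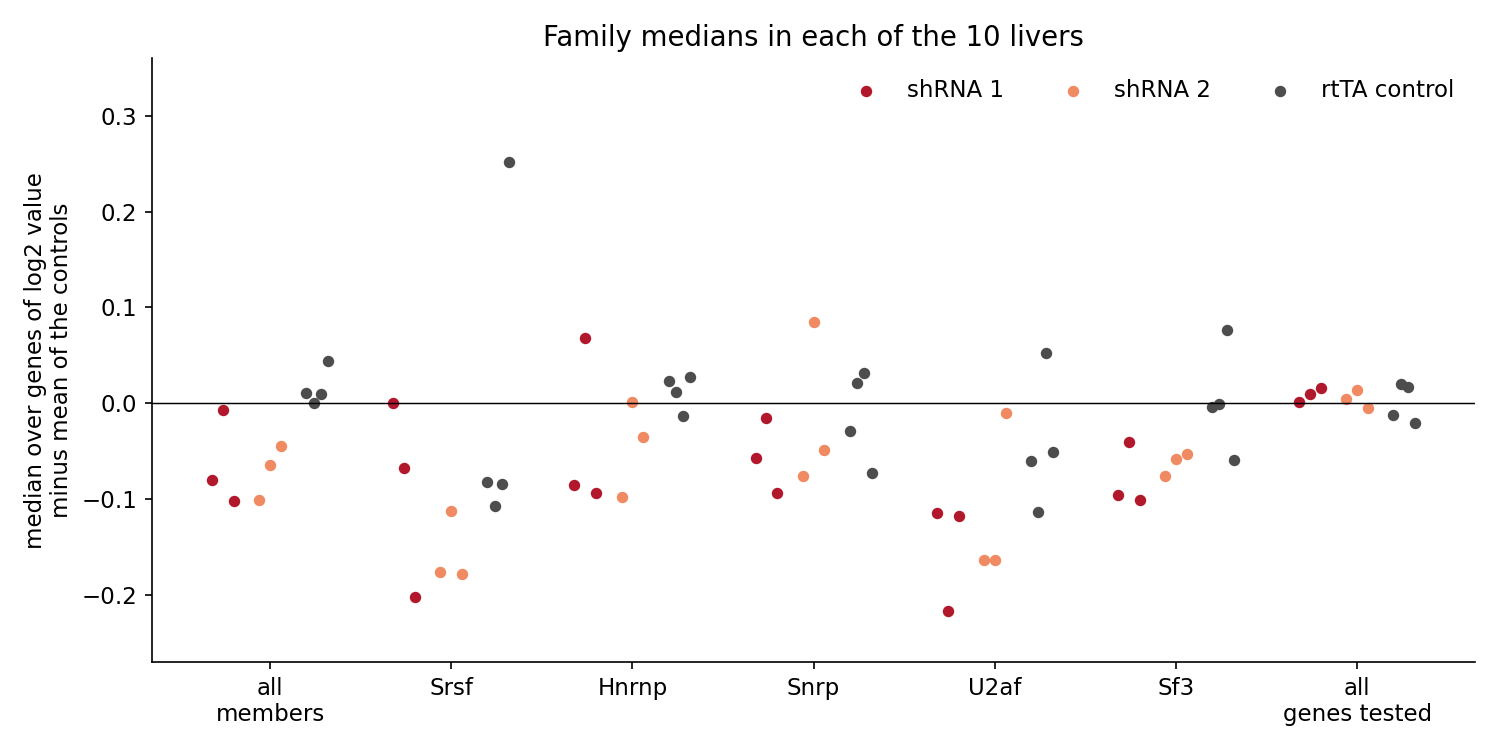
Median over the genes of each family of the log2 value minus the gene's mean in the controls (vertical axis), in each of the 10 livers, with all 47 members at the left and all 13308 genes tested at the right; points run from shRNA 1 (red) and shRNA 2 (orange) to rtTA control (grey). The highest point is the Srsf median of the fourth control at 0.25, while all genes tested stay between -0.02 and 0.02.

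Over all 47 members the median was -0.08, -0.01 and -0.10 in shRNA 1 livers, -0.10, -0.06 and -0.04 in shRNA 2 livers, against 0.01, 0.00, 0.01 and 0.04 in rtTA controls. The controls centre near 0 by construction, since each gene is set against its control mean. The second shRNA 1 liver came within 0.01 of the lowest control.

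In adapted livers the hnRNP genes were the most evenly split family, with lower means for 11 of 18. Their median was -0.05, and -0.08 without shRNA 1 replicate 2. By line, lower means were found for 15 of 18 in shRNA 1 livers (median -0.03) and 12 of 18 in shRNA 2 livers (median -0.04). Hnrnph2, which binds runs of G, measured 7.13, 7.55 and 7.50 in shRNA 1 livers, 7.49, 7.64 and 7.28 in shRNA 2 livers, against 7.66, 7.55, 7.74 and 7.50 in rtTA controls. The first shRNA 1 liver was the lowest of all, the groups overlapped, and the difference was -0.18 (standard error 0.11, adjusted p = 0.688). A second, dimmer cluster of Hnrnph2 gave -0.03 in adapted livers, -0.08 in shRNA 1 livers and 0.01 in shRNA 2 livers. Hnrnph1, a relative of Hnrnph2, measured 7.95, 8.22 and 7.79 in shRNA 1 livers, 7.93, 8.01 and 7.93 in shRNA 2 livers, against 8.24, 7.93, 7.95 and 8.40 in rtTA controls, a difference of -0.16 (standard error 0.11, adjusted p = 0.756). Hnrnpm, which binds GU-rich elements, measured 8.51, 8.41 and 8.46 in shRNA 1 livers, 8.19, 8.45 and 8.42 in shRNA 2 livers, against 8.75, 8.43, 8.40 and 8.65 in rtTA controls. For Hnrnpm adapted livers differed by -0.15 (standard error 0.09, adjusted p = 0.704), and shRNA 2 livers by -0.20 (adjusted p = 0.718).

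Of the 18 hnRNP genes 1 lay wholly below the controls in shRNA 1 livers (3.82% of all genes did) and 1 in shRNA 2 livers (3.41%). Hnrnpl, which binds CA repeats, measured 8.66, 8.63 and 8.62 in shRNA 1 livers, 8.66, 8.87 and 8.84 in shRNA 2 livers, against 8.85, 8.82, 8.73 and 8.80 in rtTA controls. All 3 shRNA 1 livers lay below all controls, by -0.16 (standard error 0.09, adjusted p = 0.684), and shRNA 2 livers differed by -0.01 (adjusted p = 0.988). Hnrnpul2, a member also known from the response to DNA breaks, measured 8.139, 8.060 and 8.024 in shRNA 1 livers, 7.882, 7.927 and 7.934 in shRNA 2 livers, against 7.976, 8.143, 7.996 and 8.339 in rtTA controls. Here the shRNA 2 livers lay below all controls, by -0.20 (standard error 0.10, adjusted p = 0.705), and below all shRNA 1 livers. Hnrnpa0, a binder of AU-rich elements, measured 7.34, 7.31 and 7.40 in shRNA 1 livers, 7.79, 7.56 and 7.28 in shRNA 2 livers, against 7.25, 7.53, 7.34 and 7.37 in rtTA controls. Both lines overlapped the controls, and shRNA 1 against shRNA 2 gave -0.19 (standard error 0.13, adjusted p = 0.909).

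The other 12 hnRNP genes differed by -0.14 (Hnrnpa3) to 0.11 (Hnrnpd) in adapted livers. Hnrnpd, or AUF1, directs AU-rich mRNAs to decay, and its second cluster had the same sign. Hnrnpdl at -0.11 and Hnrnpu at -0.10 lay below 0, as did Hnrnpf (-0.06), Hnrnpab (-0.05) and Hnrnpul1 (-0.04). Hnrnpu is also a nuclear scaffold protein, and its second cluster gave -0.18. Further clusters of Hnrnpf gave -0.06, -0.12, 0.04 and 0.02. At or above 0 were Hnrnpc (0.00), Hnrnpa2b1 (0.00), Hnrnpll (0.02), Hnrnpr (0.03) and Hnrnpk (0.04). Hnrnpk binds C-rich sequence, and of its other clusters one gave -0.18 and one 0.07.

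**Figure D4:**
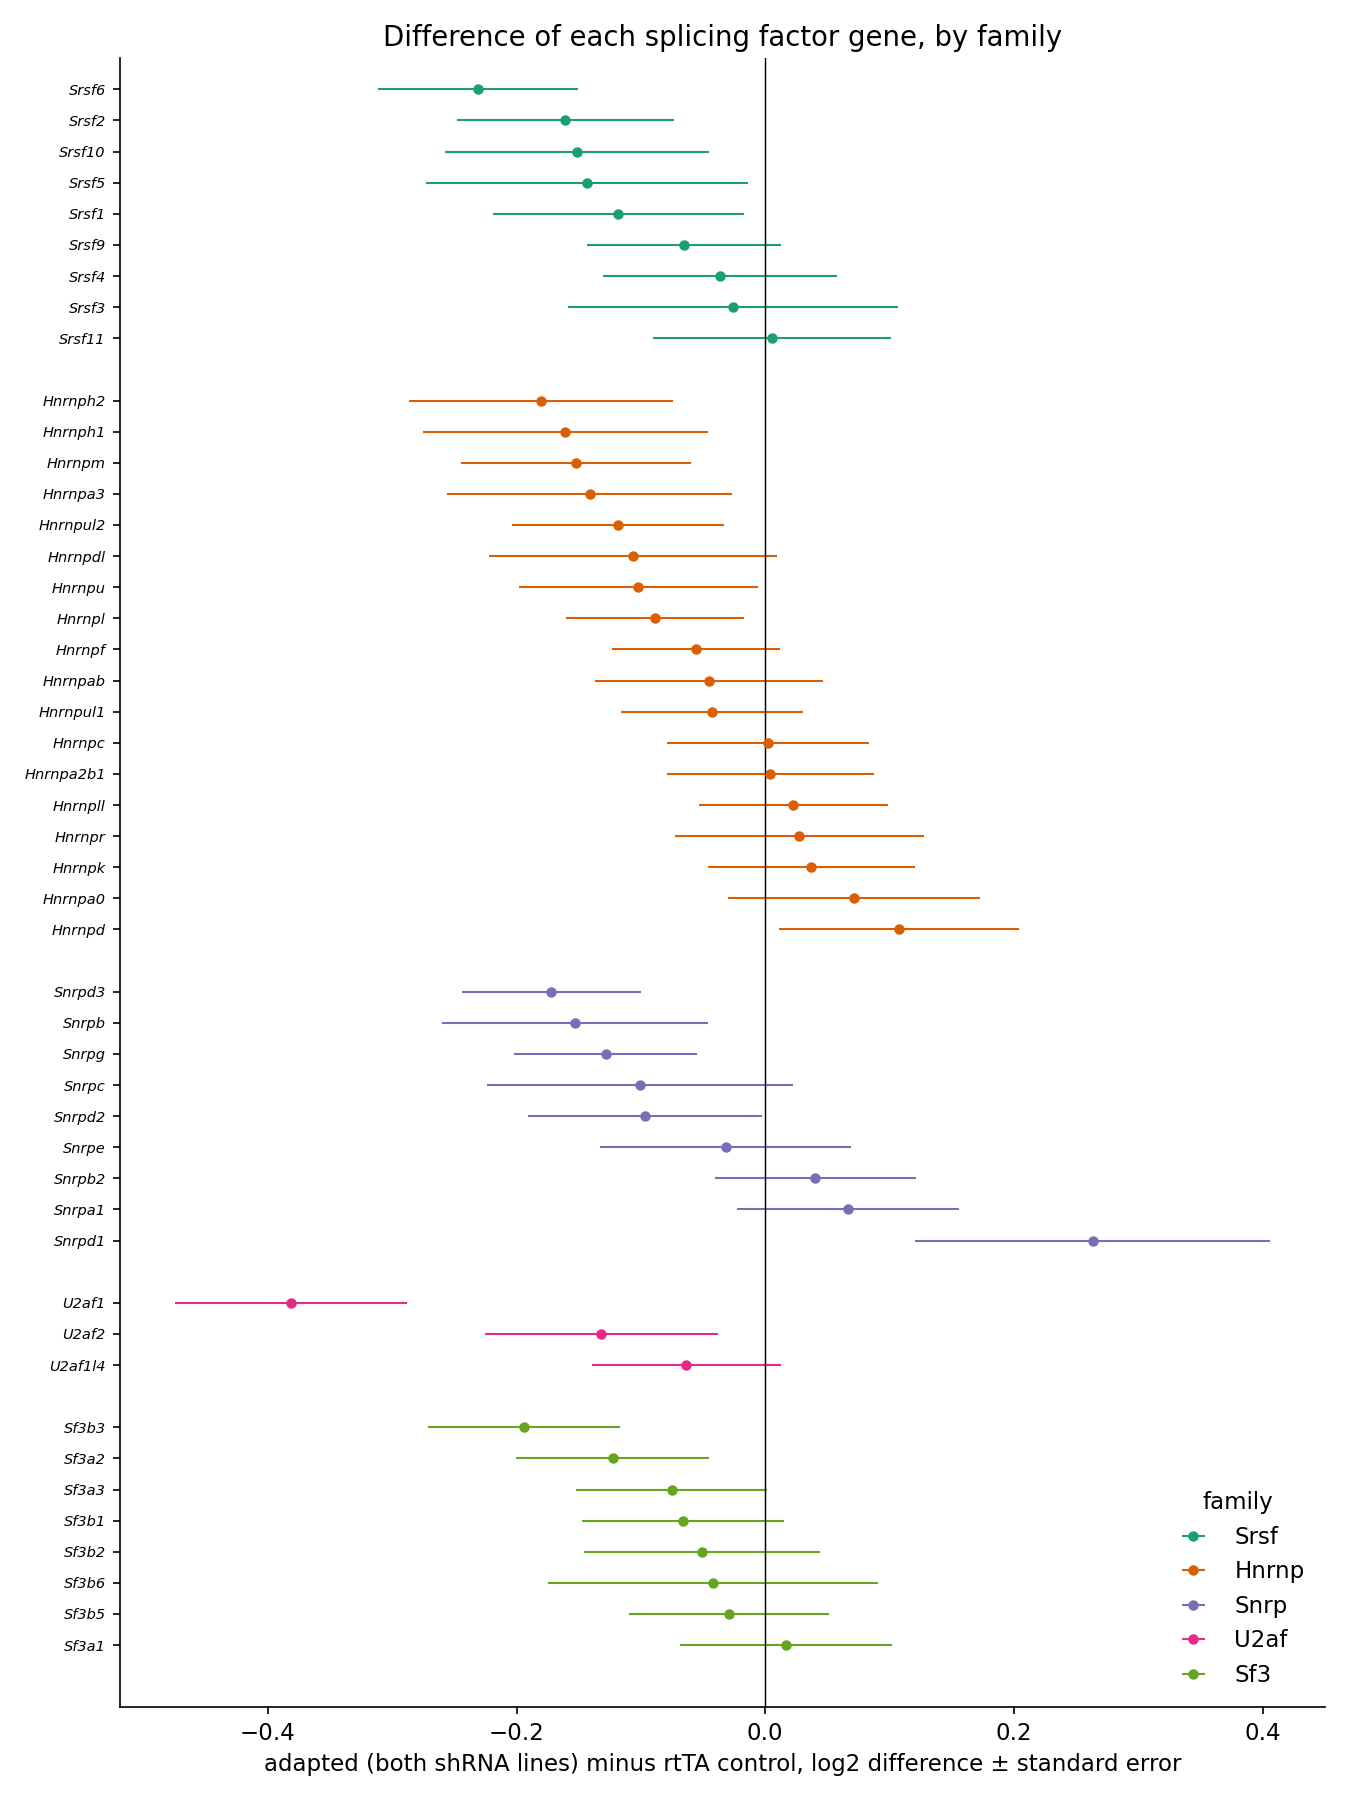
Log2 difference of adapted livers minus rtTA controls (horizontal axis) with its standard error, for each of the 47 tested genes, grouped and coloured by family and sorted within it. Most points lie left of 0, U2af1 at -0.38 is the farthest, and Snrpd1 at 0.26 is the farthest to the right.

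The Snrp family held the Sm ring proteins and parts of the U1 and U2 particles, and its members lay on both sides of 0. Lower means were found for 6 of 9 in adapted livers, with a median of -0.10, and by line it was -0.11 (shRNA 1) and 0.01 (shRNA 2). The adapted median was -0.03 without shRNA 1 replicate 3, -0.05 without control replicate 1 and -0.06 without shRNA 2 replicate 2. The shRNA 1 median was -0.06 without control replicate 3 and -0.07 without shRNA 1 replicate 2, and that of shRNA 2 had the other sign, at -0.02, without either shRNA 2 replicate 2 or control replicate 4. Snrpd3, an Sm ring protein, measured 9.58, 9.58 and 9.52 in shRNA 1 livers, 9.27, 9.39 and 9.46 in shRNA 2 livers, against 9.56, 9.61, 9.70 and 9.69 in rtTA controls. All 3 shRNA 2 livers were below all controls and below all shRNA 1 livers. The difference was -0.17 (standard error 0.07, adjusted p = 0.564) in adapted livers and -0.27 (standard error 0.08, adjusted p = 0.62) in shRNA 2 livers, and shRNA 1 exceeded shRNA 2 by 0.19 (adjusted p = 0.845).

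Snrpg, another ring protein, was the single member whose 6 adapted livers all lay below all 4 controls, a pattern that 0.842% of all genes showed. No member lay wholly above the controls (1.04% of all genes). Its levels were 7.21, 7.17 and 7.22 in shRNA 1 livers, 7.01, 7.27 and 7.22 in shRNA 2 livers, against 7.33, 7.33, 7.28 and 7.30 in rtTA controls. The difference was -0.13 (standard error 0.07, adjusted p = 0.676) in adapted livers and -0.15 (adjusted p = 0.755) in shRNA 2 livers, so complete separation here went with a small gap. Snrpd1, the ring partner of Snrpd2, had the highest difference of any member. It measured 5.59, 5.55 and 5.34 in shRNA 1 livers, 5.29, 5.68 and 4.95 in shRNA 2 livers, against 5.22, 5.40, 5.07 and 4.87 in rtTA controls. The groups overlapped, with 0.26 (standard error 0.14, adjusted p = 0.65) in adapted livers and 0.36 (standard error 0.17, adjusted p = 0.653) in shRNA 1 livers, and its second cluster gave 0.42 in adapted livers. In shRNA 2 livers Snrpd1 differed by 0.17 (adjusted p = 0.858), and by -0.02 without shRNA 2 replicate 2. Snrpd2 measured 6.04, 6.16 and 5.70 in shRNA 1 livers, 6.18, 6.26 and 6.13 in shRNA 2 livers, against 6.09, 6.14, 6.26 and 6.21 in rtTA controls. In shRNA 1 livers it differed from controls by -0.21 (adjusted p = 0.698) and from shRNA 2 livers by -0.22 (adjusted p = 0.876). Replicate 3 of shRNA 1 was the lowest of all, and without it these differences were -0.08 and -0.09.

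Snrpb, which makes the SmB and SmB′ proteins and is near-identical to the imprinted Snrpn, measured 6.73, 6.41 and 6.79 in shRNA 1 livers, 6.68, 6.55 and 6.51 in shRNA 2 livers, against 6.66, 6.89, 6.96 and 6.55 in rtTA controls. The groups overlapped, with -0.15 (standard error 0.11, adjusted p = 0.749) in adapted livers. Near-identical genes could bind the same probes, and Snrpn itself lay in a cluster with several symbols. Snrpe, the remaining tested ring protein, differed by -0.03. Among particle-specific members the U1 protein Snrpc differed by -0.10, the U2 protein Snrpa1 by 0.07 and its partner Snrpb2 by 0.04. For Snrpa1 all shRNA 1 livers were above all shRNA 2 livers, and for Snrpb2 all were below them. The Snrpa1 gap was too small to print, with the lowest shRNA 1 and highest shRNA 2 liver both at 6.9574.

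In the Sf3 family 7 of 8 tested genes had lower means in adapted livers, with a median of -0.06, which was -0.10 without shRNA 1 replicate 2 and -0.09 without control replicate 4. Sf3b3, a scaffold of the SF3B complex, measured 7.85, 7.89 and 7.76 in shRNA 1 livers, 7.81, 7.99 and 7.81 in shRNA 2 livers, against 7.95, 8.10, 8.14 and 7.99 in rtTA controls. All 3 shRNA 1 livers lay below all controls, and 1 shRNA 2 liver overlapped them. The difference was -0.19 (standard error 0.08, adjusted p = 0.521) in adapted livers, -0.21 (adjusted p = 0.583) in shRNA 1 livers and -0.17 (adjusted p = 0.709) in shRNA 2 livers. A second cluster of Sf3b3, under the level cut at a mean of 2.50, gave 0.04 in adapted livers. Sf3a2, an SF3A subunit, measured 6.85, 6.81 and 6.60 in shRNA 1 livers, 6.88, 6.84 and 6.73 in shRNA 2 livers, against 6.88, 6.91, 6.85 and 6.99 in rtTA controls. Again the shRNA 1 livers lay below all controls, but barely, with a highest value of 6.8494 against a lowest control of 6.8514. Their mean differed from controls by -0.16 (standard error 0.09, adjusted p = 0.736), and adapted livers differed by -0.12 (adjusted p = 0.721). Sf3a3 measured 6.92, 7.07 and 6.93 in shRNA 1 livers, 6.91, 7.08 and 6.84 in shRNA 2 livers, against 7.01, 7.03, 7.11 and 6.97 in rtTA controls, a difference of -0.08 (standard error 0.08, adjusted p = 0.842).

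Sf3b6, which touches the branch point adenosine, measured 7.06, 7.65 and 7.50 in shRNA 1 livers, 7.37, 7.68 and 7.43 in shRNA 2 livers, against 7.50, 7.70, 7.56 and 7.20 in rtTA controls. Its spread within groups was wide, and shRNA 1 against shRNA 2 gave -0.09 (standard error 0.17, adjusted p = 0.981). Sf3b1, which clamps the branch helix and is the target of several splicing inhibitors, differed by -0.07 (adjusted p = 0.871) in adapted livers. Sf3b2 differed by -0.05, Sf3b5 by -0.03 and Sf3a1 by 0.02. Sf3b4 (2.39 to 3.10 over all livers) lay under the level cut and was not tested.

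Full separation of groups was also counted within each line. Against controls, 5 members lay wholly below in shRNA 1 livers (Srsf6, Hnrnpl, Snrpg, Sf3a2 and Sf3b3), beside 3.82% of all genes, and 0 wholly above (5.07%). In shRNA 2 livers 4 lay wholly below (Hnrnpul2, Snrpd3, Snrpg and U2af1; 3.41% of all genes) and 0 wholly above (3.88%). Between the lines 5 members were wholly higher in shRNA 1 livers (Srsf10, Hnrnpul2, Snrpa1, Snrpd3 and U2af1; 5.94%) and Snrpb2 was wholly lower (5.36%). Barely separated were Sf3a2 in shRNA 1 livers (highest 6.8494, lowest control 6.8514) and Snrpa1 between the lines (both 6.9574). The shares of all genes are the background for these counts.

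Of the 49 members, 12 had several single-symbol clusters, giving 16 further clusters. In adapted livers 9 of the 16 had the sign of the cluster used. Above the level cut there were 11, of which 8 had that sign.

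Other splicing genes, in lists drawn up with earlier results of these data known, gave 0 calls at an adjusted p of 0.05 in any of the 4 comparisons. Among 22 tested SR-related proteins and SR kinases 18 had lower means in adapted livers, with a median of -0.07 (-0.04 for shRNA 1, -0.12 for shRNA 2). The smallest p-values were those of Tra2b, an enhancer-binding SR-like protein, at -0.17 (adjusted p = 0.684), of Pnn at -0.19 (adjusted p = 0.749) and of the SR kinase Srpk2 at 0.10 (adjusted p = 0.783). Of 44 other spliceosome proteins 30 had lower means (median -0.04, -0.02 for shRNA 1, -0.05 for shRNA 2). Sf1, which reads the branch point before U2, differed by -0.21 (adjusted p = 0.619), the core factor Prpf8 by 0.16 (adjusted p = 0.642) and the helicase Dhx15 by -0.16 (adjusted p = 0.657). Of 33 other regulators 20 had lower means (median -0.02, 0.01 for shRNA 1, -0.05 for shRNA 2). Mbnl3, a muscleblind protein, was higher in all 6 adapted livers than in all controls (1.04% of all genes), by 0.26 (adjusted p = 0.494). Khsrp was lower in all 6 (0.842% of all genes), by -0.18 (adjusted p = 0.513). With Khdrbs3 they had the smallest p-values of the list. Khdrbs3 differed by 0.21 (adjusted p = 0.651).

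Of 10 LSM proteins, which ring U6 RNA or act in mRNA decay, 5 had lower means (median 0.00, -0.08 for shRNA 1, 0.04 for shRNA 2), and Lsm8, which is specific to the U6 ring, differed by -0.36 (standard error 0.11, adjusted p = 0.433). Lsm2 differed by 0.22 and Lsm1 by -0.14. In the SMN complex, which loads Sm rings, 4 of 12 had lower means (median 0.03), with the smallest p-values for Gemin7 at 0.14, Wdr77 at 0.07 and Clns1a at 0.06. Of 9 exon junction and nonsense-mediated decay genes 7 had lower means (median -0.03). Their median difference was -0.02 in shRNA 1 livers, with 1 of 9 at an unadjusted p under 0.05 (7.89% of all genes). In shRNA 2 livers it was -0.14, with 3 of 9, all 3 lower (7.60% of all genes, 460 of 13308 lower). Per liver their median was -0.11 to 0.05 for shRNA 1, -0.17 to -0.12 for shRNA 2, against -0.06 to 0.07 in controls. Eif4a3, the RNA-binding core of the exon junction complex, measured 5.18, 5.39 and 4.86 in shRNA 1 livers, 5.06, 5.19 and 5.16 in shRNA 2 livers, against 5.59, 5.61, 5.39 and 5.45 in rtTA controls. All 6 adapted livers lay below all 4 controls, as in 0.842% of all genes, by -0.37 (standard error 0.10, adjusted p = 0.385). Upf2 differed by -0.16 and Smg5 by -0.16.

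The knockdown target Sod2 lay between 10.24 and 10.49 in all livers, with a difference of -0.01 (adjusted p = 0.98) in adapted livers, 4 weeks after birth. All 7 hepatocyte markers were above the level cut, and all 4 neutrophil markers were below it. Of 6 macrophage markers 5 had higher means in adapted livers, with medians per liver of 0.00 to 0.33 in adapted livers and -0.09 to 0.15 in controls. Of 9 heat shock and cold-inducible genes 7 had higher means in shRNA 1 than in shRNA 2 livers; their median per liver was 0.09 to 0.26 in shRNA 1 livers, -0.27 to -0.01 in shRNA 2 livers and -0.13 to 0.11 in controls. A clock score, the mean centred log2 level of Arntl, Npas2, Clock and Nfil3 minus that of Dbp, Per3, Nr1d1, Nr1d2, Tef, Ciart and Hlf, ran from -0.51 to 0.94 in shRNA 1 livers, -1.48 to 0.34 in shRNA 2 livers and -1.05 to 0.72 in controls. The part of these values in the differences between lines was not tested.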

How the data were processed

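Liver RNA of 10 mouse samples was measured on 1-colour Affymetrix Mouse Gene 2.0 ST arrays. Each deposited value is the log2 expression of 1 transcript cluster (41345 per array). The authors made them with Affymetrix Expression Console, per the submitters' processing notes, with version, normalization and build not given in the sources used here. Their scale follows from the values (1.40 to 13.8, array medians 4.06 to 4.17), which were used as deposited. The number of arrays limits the precision.

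Clusters with 1 gene symbol in the platform annotation (23521) were kept, and the highest-mean cluster stood for a gene. Genes under the 40th percentile of mean level (3.98) were left out, leaving 13308. One limma fit (3.58.1, R 4.3.3) over 3 groups gave 4 two-sided comparisons, adjusted by Benjamini-Hochberg with a threshold of 0.05. A separate fit over all 41345 clusters, without the level filter, gave the values of further clusters of a gene. Alternatives changed normalization, filter, cluster choice, replicate block, array weights, variance prior, groups, clock score, threshold and each array in turn. The fit was tested on simulated data. Figures used matplotlib 3.10.9 (Python 3.11.15).

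Named genes are any member past the threshold, the 3 members of each family (U2af 1) with the smallest p in adapted livers and the 2 (U2af 1) in each other comparison, with Snrpb and U2af1l4, and up to 3 genes per list of other splicing genes. Members and lists were chosen with earlier results of these data known. Replicate numbers are not given as a pairing in the labels. Of 9 same-numbered pairs 4 had deviations that correlated over 0.1. These correlations ran from -0.25 to 0.27, beside -0.28 to 0.27 for other pairs across groups. Deviations sum to 0 within such small groups, so this check cannot exclude a pairing.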

Additional observations from a re-analysis of the deposited data

Results flagged for a closer look

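Both results in this part stem from the fourth rtTA control, which stood far from the other 3 controls. Srsf1, tested in the group of 4 controls, measured 8.68 there and 8.34 to 8.35 in the others. The median of the Srsf family was 0.25 above the mean of the controls there and -0.11 to -0.08 in the others. A gap past the cut-off of this check was found for 2 of 28 items, where chance alone passes the cut-off in about 1 in 20 groups. That rate belongs to the cut-off and not to gaps as large as these. The gap made up 0.987 of the range of the controls for Srsf1 and 0.931 for the Srsf median. How often chance gives gaps of that size was not computed. The items share the same 4 controls, so the count cannot decide whether the fourth control is unusual. Both results rest partly on the same gene and array. No member passed the test between the shRNA lines.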

How the results depend on the processing

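In each of the 4 comparisons 0 members passed an adjusted p of 0.05 under all 20 alternatives, and 0 at 0.1. The members' median difference stayed between -0.09 and -0.06 in adapted livers, -0.10 and -0.05 in shRNA 1 livers (-0.05 without shRNA 1 replicate 3) and -0.07 and -0.04 in shRNA 2 livers. Between the lines (-0.03) it ran from -0.051 to 0.028 with single arrays left out, with the sign turned without shRNA 1 replicate 1 (0.028), shRNA 1 replicate 3 (0.01) or shRNA 2 replicate 2 (0.01). The cause was not tested. Members at an unadjusted p under 0.05 numbered 2 to 5, 0 to 3, 2 to 4 and 1 to 3 in the order adapted, shRNA 1, shRNA 2 and between lines. In adapted livers the 2 came without shRNA 1 replicate 3, shRNA 2 replicate 1 or rtTA control replicate 3. With 1 array left out, 67 of 88 values of named members and 18 of 20 family medians, these medians chosen as alternatives after seeing the data, moved by over 1.5 times or turned sign in at least 1 case; none of these was a call. Of the medians, Snrp in adapted livers (-0.10) was -0.03 without shRNA 1 replicate 3 and Srsf (-0.12) -0.04 without rtTA control replicate 4. Calls over all genes ran 0 to 6 (1 as reported), 0 to 30 (0), 0 to 3 (1) and 1 to 7 (2), with the most under an intensity trend and robust prior except in shRNA 2 livers, where they came without rtTA control replicate 1. Of 1756 alternatives for 88 values of named members, 1706 kept side and sign, 50 turned sign without a call and 0 reversed a called value. U2af1 kept its sign in all 4 comparisons, with an adjusted p of 0.180 to 0.532 in adapted livers and 0.173 to 0.718 in shRNA 2 livers. Between the lines its difference ran from 0.36 to 0.43 with 1 array left out, and from 0.38 to 0.40 under the other alternatives. With the replicate number as a block, members called were again 0 and the median was -0.06 in adapted livers; the numbers mark no pairing in the labels, and the fourth control, alone in its number, then carries no weight.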
